A study of Pinus pinaster with 66 samples.

Results

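The membrane lipid enzymes described here are 2 of the 8208 spots of a cDNA microarray of maritime pine (Pinus pinaster). They were chosen by name: spot Q11J18 is described as a fatty acid/sphingolipid desaturase, and spot Q15E22 as an aminoalcoholphosphotransferase 1. The deposited table pairs no spot with a gene, so both names rest on the study's description, and neither was checked against sequence here. Both spots had a value on all 66 arrays.

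Desaturases of this family place double bonds in the acyl chains of membrane lipids or in the long-chain bases of sphingolipids, and the degree of unsaturation bears on how fluid a membrane is. In Arabidopsis, acyl desaturases are known for their part in tolerance of low temperature. Aminoalcoholphosphotransferases act later in lipid assembly: in Arabidopsis they transfer the head group of CDP-choline or CDP-ethanolamine to diacylglycerol, the last step in making phosphatidylcholine and phosphatidylethanolamine, the main phospholipids of membranes outside the plastid.

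The needles came from 6 trees of 20 to 25 years that grew in a mountain stand in southern Spain, with no treatment named in the labels, harvested through 2012. Each whorl of needles is the growth of 1 year, so that Whorl 0 grew in 2012, Whorl 1 in 2011, Whorl 2 in 2010 and Whorl 3 in 2009. Whorls 1 to 3 were measured in January, March, May, July, September and November, and Whorl 0, which emerged in May, in the last 4 of these months. RNA of the trees was pooled 2 by 2 into 3 replicates for each of the 22 groups of month and whorl, labelled with Cy3 and hybridised against a Cy5-labelled common reference of January needles.

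All values are log ratios, taken as log2 of sample over reference, so that a difference of 1 is a doubling of the ratio. Neither the base of the logarithm nor the order of the ratio was stated in the sources used here; this direction is likely, since it is the one in which the study reads its values as expression. Arrays had values for 6519 to 8076 spots, and the lowest correlation between any 2 arrays across spots was -0.24. Of these arrays 65 were used. The one without a place in the comparisons, replicate 2 of Whorl 2 in November, read 0.72 for Q11J18 and 0.35 for Q15E22, and had been dropped from the network analysis as an outlier. Needles were measured whole, so fewer cells of a type and less RNA per cell cannot be told apart. A value near 0 does not mean the January level at these spots. The 9 January arrays, set against a January reference, had a mean log2 ratio of -0.79 at Q11J18 and -0.30 at Q15E22, and all 9 were below 0 at both. Across 7302 spots, 95% of the January means lay between -0.447 and 0.309, and 12 spots had a lower mean than Q11J18, against 542 lower than Q15E22. The reason was not tested, and a month field beside the reference in most sample labels names another month than January. Levels below are therefore read against the January arrays, not against 0.

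The study listed both spots among the 10 most related to the rainfall of the month on these same arrays. Their course over the months is thus what they were chosen for, and is given as a description without a test. Rainfall has 1 value per month, so a difference between whorls within a month entered that choice as spread around the monthly value. A spot with a large spread of this kind was less likely to be listed, so the choice favoured small differences between whorls. Those differences are tested with limma.

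The desaturase spot fell from January to July and rose steeply to November. In Whorls 1 to 3 the January arrays had a lowest, median and highest log2 ratio of -1.27, -0.75 and -0.50. In March these were -1.48, -1.21 and -0.90, and in May -2.08, -1.90 and -1.07. The July arrays, at -2.56, -2.39 and -2.10, were the lowest of the year in these whorls, and every one of them was below every May array. In September the values were -1.26, -1.11 and -1.0. The 8 November arrays stood above all others of these whorls, at 0.07, 0.70 and 0.93, and were the only month of Whorls 1 to 3 above 0.

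Taken as steps between the means of Whorls 1 to 3, Q11J18 fell by 0.45 ± 0.09 (SE) from January to March, by 0.56 ± 0.09 from March to May and by 0.54 ± 0.09 from May to July. It then rose by 1.22 ± 0.09 from July to September, a 2.33-fold higher ratio, and by 1.80 ± 0.10 from September to November, a 3.49-fold higher ratio. These rises were among the largest on the array: by size in either direction, the first ranked 27 of 7403 spots and the second 16 of 7375. November stood 1.47 ± 0.10 above January, which ranked 9 of 7519 spots. Quantile normalization of the arrays kept the direction of these steps but made the first 4 smaller by over 1.5 times, at -0.28 from January to March, -0.31 from March to May, -0.27 from May to July and 0.72 from July to September.

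The aminoalcoholphosphotransferase spot had the same turning point, in July, but most of its rise was over by September. In Whorls 1 to 3 its January arrays had a lowest, median and highest log2 ratio of -0.49, -0.30 and -0.18, and its July arrays of -1.15, -0.98 and -0.75. Its September arrays were at -0.25, -0.04 and 0.04, all 9 above the highest July array. The 8 November arrays, at -0.11, 0.08 and 0.24, overlapped those of September. The mean fell by 0.23 ± 0.05 (SE) from January to March, by 0.17 ± 0.05 to May and by 0.26 ± 0.05 to July. Quantile normalization moved the last 2 of these to -0.27 and -0.13, and the step to May was -0.10 without replicate 2. It rose by 0.89 ± 0.05 to September, a 1.85-fold higher ratio that ranked 103 of 7403 spots, and by 0.14 ± 0.05 from September to November, which ranked 3863 of 7375. That last step was 0.0058 without replicate 3, whose arrays were the highest of those used in each November whorl at this spot.

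**Figure D1:**
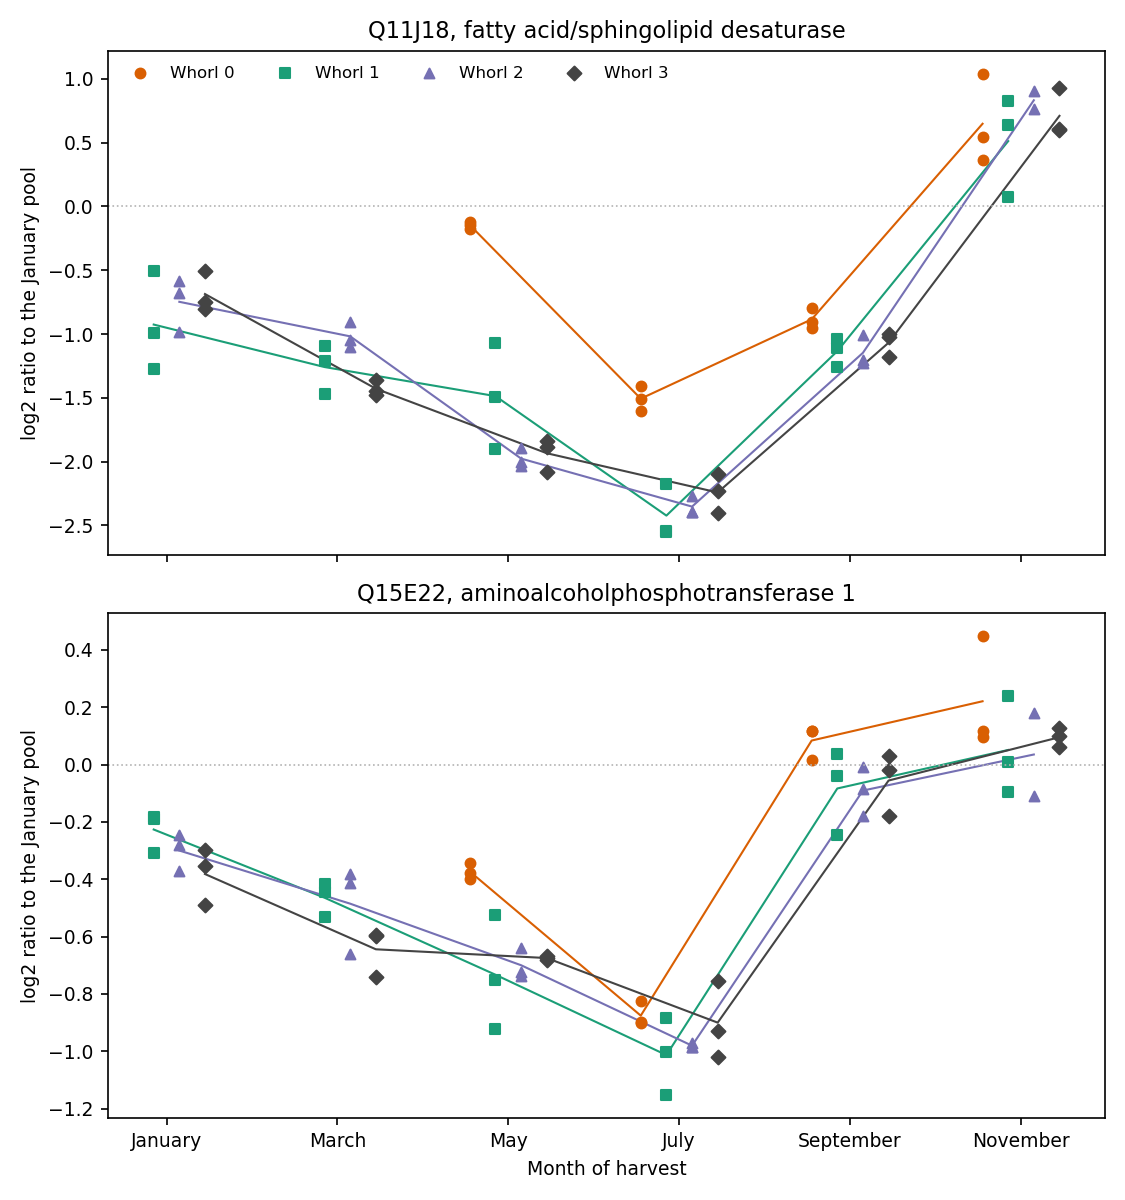
Log2 ratio to the January pool at each spot by month of harvest; each point is 1 array, lines join the means of a whorl, and the vertical scales differ. Q11J18 runs from a mean of -2.34 in July to 0.69 in November in Whorls 1 to 3, Q15E22 from -0.96 to 0.06, and Whorl 0 stands above the older whorls of Q11J18 in May and July.

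Over all 22 groups the mean of Q11J18 ranged from -2.42 in July Whorl 1 to 0.83 in November Whorl 2, a span of 3.26 or 9.56-fold. Its SD over the group means, 0.981, ranked 14 of 7173 spots, for which the median SD was 0.150. Its replicates were also more spread than those of 89.6% of the spots, with a pooled SD of 0.204 against a median of 0.107. Q15E22 ranged from -1.01 in July Whorl 1 to 0.22 in November Whorl 0, a span of 1.23 or 2.35-fold, with an SD over group means of 0.387 that ranked 657 of 7173. Its pooled replicate SD was 0.115.

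With the groups put in order of their mean, most neighbours were not separated. The groups were ordered by these same values, and the counts below were not taken over the other spots. At Q11J18, 4 of the 21 neighbouring pairs had arrays that did not overlap. From the top, these gaps lay between November Whorl 1 and May Whorl 0, between May Whorl 0 and January Whorl 3, between July Whorl 0 and May Whorl 3, and between May Whorl 2 and July Whorl 3. These gaps hold between neighbouring means, not between whole sets: May Whorl 1 ranks just above July Whorl 0, yet its replicate 2, at -1.90, lay among the arrays of the older May whorls. At Q15E22, 1 of 21 neighbouring pairs did not overlap, between September Whorl 2 and January Whorl 1. September Whorl 1 replicate 3, at -0.25, was still below 2 of the 3 January Whorl 1 arrays.

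The whorls of 1 month differed most at the desaturase spot in spring and summer, when the current year's needles carried more of its transcript than older needles. In May, the Whorl 0 arrays of Q11J18 read -0.14, -0.12 and -0.17, and the older whorls -2.08, -1.90 and -1.07 at their lowest, median and highest. All 3 were above all 9 older arrays. The difference was 1.65 ± 0.13 (SE, 95% interval 1.39 to 1.92), a 3.15-fold higher ratio (limma, adjusted p = 8.8e-15), and ranked 107 of 7752 spots. In July the Whorl 0 arrays were at -1.60, -1.41 and -1.51, again above all 9 older arrays. The July difference of 0.83 ± 0.13 (0.56 to 1.10), 1.78-fold, had an adjusted p of 2.0e-06 in limma and ranked 251 of 7464. A higher Whorl 0 was common on the array, with 26.7% of the spots tested called higher in May and 18.3% in July.

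By autumn this difference was no longer called. The September arrays of Whorl 0 read -0.80, -0.95 and -0.91 at Q11J18, all above the older arrays, whose highest was -1.0, but by a small margin. The difference was 0.23 ± 0.13 (-0.04 to 0.50, limma, adjusted p = 0.341). That SE rests on 1 spread shared by all groups, whose replicate SDs at this spot ran from 0.03 to 0.41, against 0.08 to 0.12 in September. With the September arrays fitted alone, the same difference had an SE of 0.07 and did not pass (limma, adjusted p = 0.0827). In November Whorl 0 read 0.54, 0.36 and 1.04, within and around the range of the older whorls, and differed by -0.04 ± 0.14 (-0.31 to 0.24, adjusted p = 0.961). In these months 5.21% and 3.04% of the spots were called higher in Whorl 0.

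The loss of the difference was tested directly, as the change of the Whorl 0 difference between months. From May to July it fell by 0.82 ± 0.19 (SE) at Q11J18 (limma, adjusted p = 0.000834), where 9.45% of the spots had a called fall. From May to November it fell by 1.69 ± 0.19 (adjusted p = 7.9e-10), with 15.8% of the spots called. From July to September it fell by 0.60 ± 0.19 (limma, adjusted p = 0.0356; 6.6% of the spots called). This limma call was lost without replicate 1 (-0.62, adjusted p = 0.121), without replicate 2 (-0.52, adjusted p = 0.207), without replicate 3 (-0.66, adjusted p = 0.126) and after quantile normalization (-0.43, adjusted p = 0.429). Over the 12 alternatives its adjusted p in limma ran from 0.00211 to 0.429, and 8 kept the call. From September to November it was lower by a further step that did not pass (-0.27 ± 0.19; limma, adjusted p = 0.828; 0.41% called).

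At the aminoalcoholphosphotransferase spot the current year's needles were higher in May by a smaller amount. The May Whorl 0 arrays of Q15E22 read -0.38, -0.40 and -0.34, and the older whorls -0.92, -0.68 and -0.53 at their lowest, median and highest, so that the groups did not overlap. The difference was 0.33 ± 0.07 (SE, 0.18 to 0.48), 1.26-fold (limma, adjusted p = 0.000202), and ranked 2163 of 7752 spots. As given above, 26.7% of the spots were called higher in this month. In July, Whorl 0 at -0.90, -0.82 and -0.90 lay inside the range of the older whorls, with a difference of 0.09 ± 0.07 (-0.06 to 0.24; limma, adjusted p = 0.358). That value became 0.28 and passed (limma, adjusted p = 0.00692) when arrays were scaled to a common spread, the 1 alternative of 12 that passed, with adjusted p from 0.00692 to 0.836. The differences in September, 0.16 ± 0.07 (0.01 to 0.31; limma, adjusted p = 0.204), and November, 0.16 ± 0.08 (0.01 to 0.31; adjusted p = 0.303), did not pass after adjustment, although their unadjusted intervals lay above 0. Whether the May difference itself changed was not settled: the change to July, -0.24 ± 0.10, had an adjusted p of 0.0987 in limma, which became 0.0389 with the pool of trees within a month as a random replicate block and 0.0419 after quantile normalization. The other 10 of its 12 alternatives did not pass, with adjusted p up to 0.372 in limma. The later changes, 0.07 ± 0.10 from July to September (limma, adjusted p = 0.781) and -0.17 ± 0.11 from May to November (adjusted p = 0.239), did not pass, nor did the change from September to November.

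**Figure D2:**
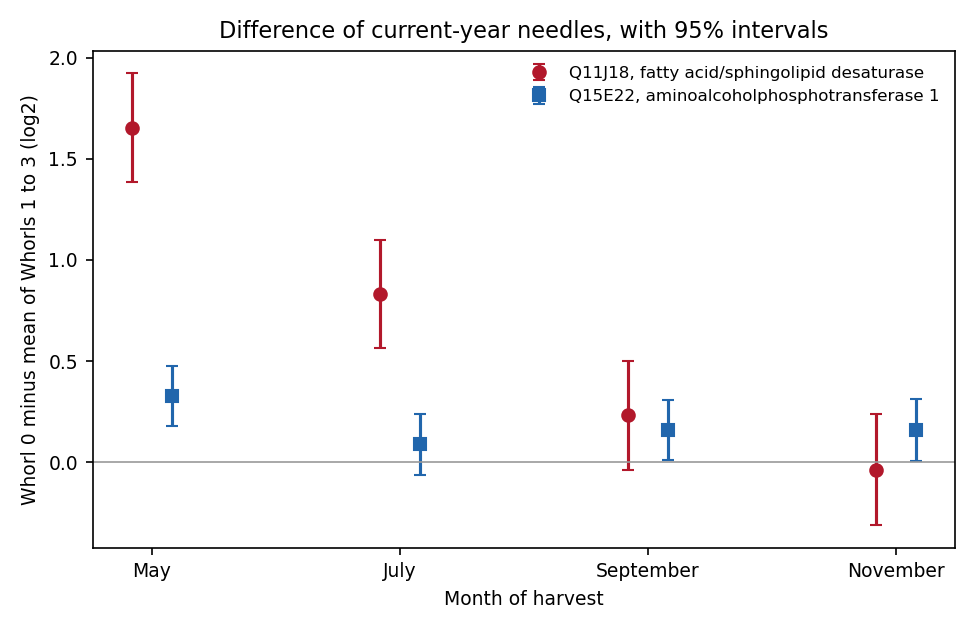
Difference of Whorl 0 from the mean of Whorls 1 to 3 by month (log2), as the fitted value with its 95% interval. Q11J18 goes from 1.65 in May through 0.83 and 0.23 to -0.04 in November, while Q15E22 stays between 0.09 and 0.33.

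Both spots lie on every array, so their difference could be compared within arrays. In May, Q11J18 minus Q15E22 was between 0.17 and 0.28 in the 3 Whorl 0 arrays and between -1.40 and -0.54 in the 9 older arrays. The desaturase excess of Whorl 0 was thus 1.32 larger than that of the aminoalcoholphosphotransferase (two-sided exact permutation test, p = 0.00455 and 0.00909 adjusted over the 4 months, with 0.00455 the least that 220 assignments can give). July gave 0.74 with the same p values, and again all 3 Whorl 0 arrays were above all 9 older ones. September gave 0.07 (exact p = 0.282, adjusted 0.291) and November -0.18 (exact p = 0.291, adjusted 0.291). The test exchanged the arrays of a month freely, although arrays of the same replicate number were taken to share a pool of trees. Over 7 alternatives, permutation within the replicate number among them, 4 kept the call in May and in July. The adjusted exact p ran from 0.00909 to 0.0714 in both months, and the alternatives that failed left out 1 replicate. With fewer arrays the least p that the test can give is larger. These failures therefore cannot tell whether the difference was weaker.

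Among the needles past their first season, 1 difference by age was called in limma over both spots and all 6 months, and it depended on the processing. Q11J18 was higher in Whorl 1 than in Whorls 2 and 3 in May, by 0.47 ± 0.14 (SE, 0.18 to 0.75; limma, adjusted p = 0.0160), where 17.1% of the spots were called. The May Whorl 1 arrays read -1.07, -1.90 and -1.49 at this spot, the Whorl 2 arrays -1.90, -2.03 and -2.0, and the Whorl 3 arrays -1.84, -1.89 and -2.08. The groups overlapped through replicate 2 of Whorl 1. The limma call was lost without replicate 1 (0.31, adjusted p = 0.266), without replicate 3 (0.43, adjusted p = 0.191), after quantile normalization (0.32, adjusted p = 0.244) and with scaled arrays (0.33, adjusted p = 0.166). Over its 12 alternatives the adjusted p in limma ran from 0.00297 to 0.266, and 8 kept the call.

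In the other 5 months the Whorl 1 difference of Q11J18 lay between -0.26 in November and -0.03 in September and did not pass. For Q15E22 it lay between -0.07 in July and 0.11 in January over the 6 months, with no call. On the array as a whole this contrast called 7.3% of the January spots, 0.372% in March, 0.619% in July, 0.0401% in September and 0% in November, where limma called none and 387 spots had an unadjusted p under 0.05.

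Between the oldest whorls, the largest value was in March at the desaturase spot. Whorl 3 read -1.36, -1.48 and -1.45 and Whorl 2 read -1.11, -0.90 and -1.05, so that all 3 arrays of Whorl 3 were below all of Whorl 2. The difference of -0.41 ± 0.16 (SE) did not pass (limma, adjusted p = 0.140), with 5.89% of the spots called. It passed with the random replicate block (limma, adjusted p = 0.0483) and after quantile normalization, where it was -0.75 (adjusted p = 0.0208). The adjusted p in limma ran from 0.0208 to 0.466 over the 12 alternatives, of which 2 passed. Q15E22 differed by -0.16 in March without a call, and neither spot was called in another month, when the share of spots called was 3.4% (January), 0% (May), 0.0524% (July), 0.0802% (September) and 0% (November). Limma called no spot in May and November, when 243 and 190 spots had an unadjusted p under 0.05.

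Averaged over the 6 months, Whorl 3 differed from Whorl 1 by 0.01 ± 0.07 at Q11J18 (SE, -0.12 to 0.15; limma, adjusted p = 0.944) and by -0.02 ± 0.04 at Q15E22 (-0.09 to 0.06; adjusted p = 0.848), while 10.4% of the spots were called. A joint test of whether the differences among Whorls 1 to 3 changed with the month gave an F of 2.42 at Q11J18 (adjusted p = 0.142, unadjusted 0.0207) and of 1.02 at Q15E22 (adjusted p = 0.707), with 7.89% of the spots called.

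**Figure D3:**
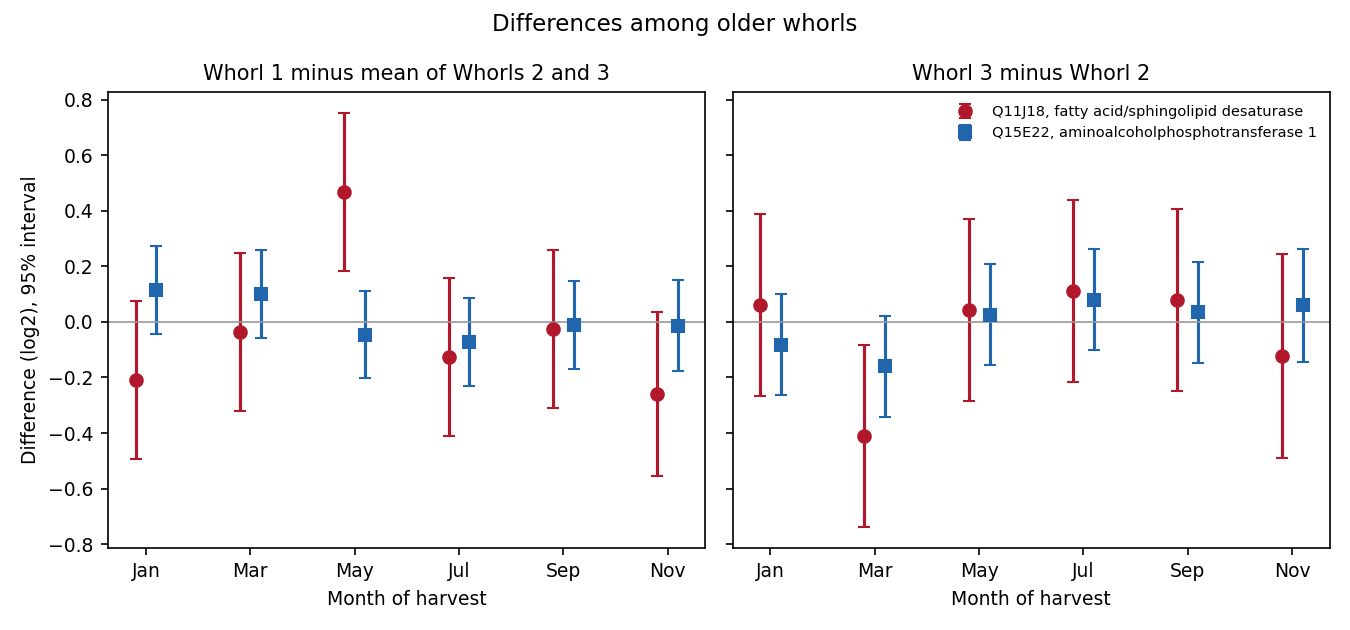
Differences among older whorls by month (log2) with 95% intervals, Whorl 1 against the mean of Whorls 2 and 3 on the left and Whorl 3 against Whorl 2 on the right. The May value of 0.47 for Whorl 1 at Q11J18 is the one that was called; the March value of -0.41 for Whorl 3 at Q11J18 has an unadjusted interval below 0 but did not pass after adjustment.

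The split of the variance between group means puts these parts side by side. Both spots were listed for a variable with 1 value per month, so a large month share and a small whorl share were favoured by their choice. The shares are a description, and those of the other spots were not taken. In Whorls 1 to 3 over 6 months, month took 97.9% at Q11J18 and 98.1% at Q15E22, and whorl 0.0531% and 0.0305%. With Whorl 0 included, over the 4 months it was present, month took 85.7% of the variance at Q11J18, whorl 6.82%, and month and whorl together 7.49%. For Q15E22 the same shares were 95.5%, 3.66% and 0.863%. The share that depends on both month and whorl was larger at the desaturase spot, where Whorl 0 was high in May and July and overlapped the older whorls in November.

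The steps over the season in Whorl 0 can be set beside those of the older needles; the test of their differences is the change of the Whorl 0 difference given above, which passed for Q11J18 from May to July and from July to September and for no step of Q15E22. Q11J18 fell by 1.36 ± 0.16 (SE) from May to July in Whorl 0, which ranked 74 of 7534 spots, against 0.54 in the older whorls. It then rose by 0.62 ± 0.16 to September, or 0.40 with scaled arrays and 0.29 after quantile normalization, against 1.22 in the older whorls, and by 1.53 ± 0.16 to November. Q15E22 fell by 0.50 ± 0.09 in Whorl 0 from May to July, rose by 0.96 ± 0.09 to September, ranking 98 of 7448 spots, and by 0.14 ± 0.09 to November. The last value was -0.0095 without replicate 3. In young and old needles, the larger autumn step of the desaturase was the one to November, and that of the aminoalcoholphosphotransferase the one to September.

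The level of both spots moved together over the groups. Across the 22 group means, Pearson's r was 0.842 and Spearman's rho 0.868. Over the 18 groups of Whorls 1 to 3 they were 0.872 and 0.884, and over the 18 groups without November 0.763 and 0.796. These points share the reference and the trees, and both spots were listed for a relation to 1 variable, so the values are a description. The size and order of the months were not the same at both spots. From September to November, in Whorls 1 to 3 the mean rose by 0.14 at Q15E22 and by 1.80 at Q11J18. January stood above September at Q11J18, at -0.79 against -1.12, and below it at Q15E22, at -0.30 against -0.08.

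**Figure D4:**
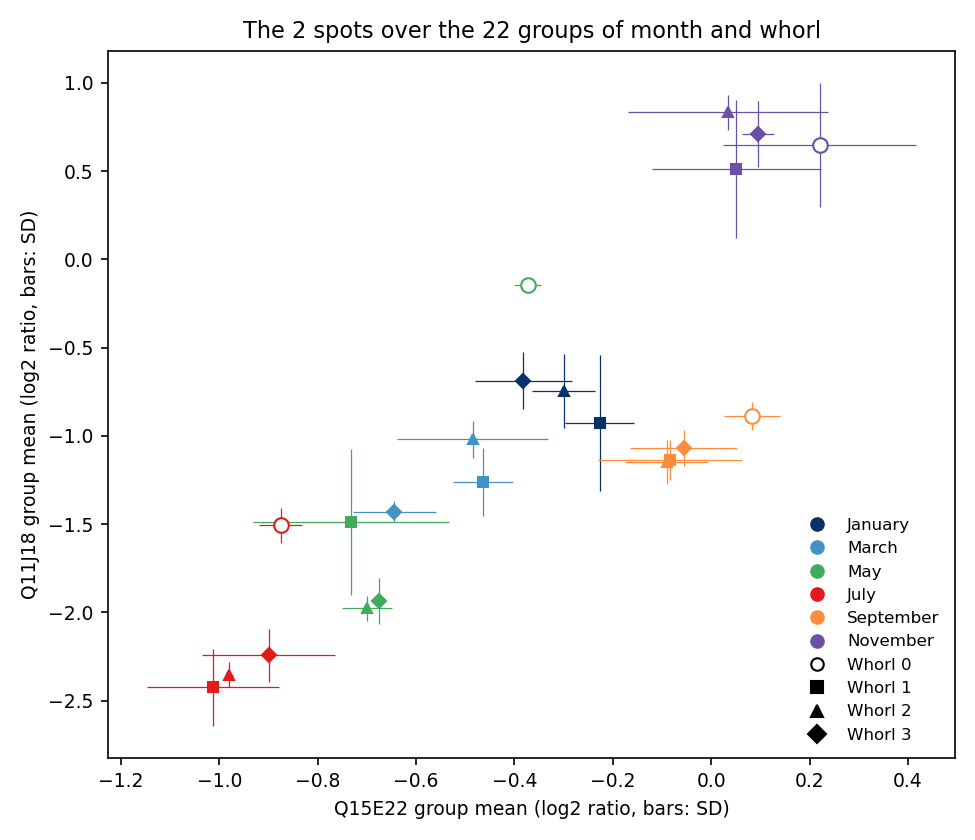
Group means of Q11J18 (vertical) against Q15E22 (horizontal), log2 ratio, with the SD of the replicates as bars, colour for month and shape for whorl. The 22 points rise together (r = 0.842), with November and May Whorl 0 lying high for the desaturase at their level of the aminoalcoholphosphotransferase.

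The 2 spots also moved together within groups. Such deviations entered their choice by monthly rainfall only as spread around the monthly value, and the values are a description. The deviations of the 65 arrays from their group means had a Pearson's r of 0.522 and a Spearman's rho of 0.405 between the spots. Of 5822 spots with a value on all of these arrays, 3 had a higher r with Q11J18, and the median r was 0.01. Among the other 8 spots listed for rainfall it ran from -0.04 to 0.38. Without November r was 0.423, which was higher than 99.7% of the spots, and without the 2 arrays farthest from their group mean at Q11J18 it was 0.440. Spearman's rho was lower, at 0.350 without November, 0.349 without those 2 arrays and 0.294 without January and November.

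By replicate number, the deviations of both spots ran the same way in some months and parted in others. In January, replicate 1 was above its group mean in all 3 whorls at both spots. In July it was below in all 4 whorls at both. In November, replicate 3 was above in 3 of 4 whorls at Q11J18 and in 4 of 4 at Q15E22, with mean deviations of 0.21 and 0.15. They parted in January for replicate 2, which was above in 0 of 3 whorls at Q11J18 and 2 of 3 at Q15E22, in March for replicate 2 (1 of 3 against 3 of 3) and in November for replicate 1 (2 of 4 against 0 of 4). In May the spots parted for every replicate. Replicate 1 was above in 4 of 4 whorls at Q11J18 and 2 of 4 at Q15E22. Replicate 2 was above in 2 of 4 against 0 of 4, and replicate 3 in 0 of 4 against 2 of 4. No replicate number was high throughout the year, and since deviations are taken from the group's own mean, 1 high replicate lowers the others.

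Some other spots had a course closer to each member than the members had to each other. Over the 22 group means the most like Q11J18 were Q20B23 (r = 0.968) and Q21K13 (0.936), and the least like Q16D19 (-0.943) and Q10L19 (-0.922), none of which is among the spots the study describes. Among the 43 spots that the study names, the most like it were Q19M11, a 3-hydroxy-3-methylglutaryl synthase (0.931), and the mitochondrial dicarboxylate carriers Q11D3 (0.888) and Q12A19 (0.874). Q15E22 ranked 66 of 7172 spots in likeness to Q11J18. For Q15E22 the most like were Q11O15 (0.931), which is not described, and again Q19M11 (0.926), and the least like Q5C12 (-0.957) and Q6A24 (-0.934). Then came, among named spots, the heat shock protein of Q17J7 (0.869) and Q11J18 itself (0.842, rank 45). Hydroxymethylglutaryl-CoA synthase makes an early precursor of sterols and other isoprenoids, and its spot was among the 3 closest to both members. These named spots are all on the study's rainfall list, as both members are, so a like course over the months was part of their choice. Their closeness is therefore a description, and a link between their pathways was not tested.

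The other 8 spots that the study listed for rainfall serve as the comparison list, since they were chosen in the same way. However, 1 of the 8, an auxin-responsive protein, was listed for a negative relation to rainfall. The members and the rest of the list had a positive one, and the counts and medians below mix both. In Whorl 0 against Whorls 1 to 3, 6 of the 8 were called higher in May and 5 in July, with none lower, where 26.7% and 18.3% of all spots were called higher. Their median differences were 0.46 and 0.34, against -0.01 and -0.03 over all spots. In September none of them was called higher and 1 was called lower, and in November none was called. Q19M11 was higher in Whorl 0 by 0.41 ± 0.12 in May (SE; limma, adjusted p = 0.00467) and by 0.31 ± 0.12 in July (adjusted p = 0.0394). The May value of the desaturase, 1.65, was above the median of this list and that of the aminoalcoholphosphotransferase, 0.33, below it. The change of the Whorl 0 difference was a called fall at 1 of the 8 from May to July, at 3 from July to September and at 3 from May to November, where 9.45%, 6.6% and 15.8% of all spots had one. Q11J18 was called in all 3 and Q15E22 in none.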

How the data were processed

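The deposited values are log2 ratios (base assumed) of Cy3-labelled needle RNA to the Cy5-labelled January reference, normalized between arrays by the authors with BABAR for common reference designs. Its version, the background correction and the handling of duplicate spots were not given in the sources used here. The values were used as deposited; the median of every array is 0. Group means were fitted with limma 3.58.1 in R 4.3.3 on the 65 arrays, for spots with a value on at least 0.5 of them (7809) and in every group compared, and p was adjusted by Benjamini-Hochberg over all spots tested, with calls under 0.05. Changes are therefore relative to the array as a whole. Permutation tests and descriptions used Python 3.11.15 with scipy 1.17.1. The fit was tested on simulated data for the May contrast of Whorl 0, with errors independent between arrays. That test did not cover the correlation between arrays of the same pool.

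The members, the lists and the tests were chosen with earlier results of these data known. The spots named are the 2 members, the other 8 spots of the study's rainfall list, of which Q19M11 is named, and for each member the 2 highest and 2 lowest correlations over group means plus the 3 highest among described spots. A figure caption of the study ties a replicate number to an individual, while its methods describe RNA pooled 2 by 2. Which trees made which replicate is not stated in the text used here. The same 6 trees were harvested each month, so numbers were taken to pair samples. That a number stands for the same trees in each whorl and month is an assumption. Arrays of the same number and month had deviations with a mean r of 0.279 over 87 pairs, 68 of them above 0.1 and the lowest at -0.29. Over 174 pairs of different numbers it was -0.139. Deviations within a group sum to 0, so this value largely follows from the first and is not a separate observation. The replicates are pools of trees and 3 per group limit the precision. The alternatives were all 66 arrays, quantile normalization, scaling, other filters on missing values, robust moderation of the variances, fits on the months compared alone, replicate blocks, and leaving out each replicate.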

Additional observations from a re-analysis of the deposited data

Results flagged for a closer look

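The difference between current-year and older needles was not the same in all months at the desaturase spot Q11J18, by the limma test of the difference itself. It changed by -0.82 from May to July, by -0.60 from July to September and by -1.69 from May to November. The 3 values share months, so they are not independent. The change from July to September is the one that was lost when any replicate was left out.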

How the results depend on the processing

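Of 530 alternative values of the 46 tested results, 485 kept their direction and side of the threshold, 14 lost the call, 5 gained one and 26 changed sign, each without a call before or after. Over all 74 results, 652 of 718 values were kept, and 21 without a test moved by more than their spread: the replicate SD for steps, and for shares of variance the SD over shares from each replicate alone. The cause of these moves was not tested. With the replicate number as a fixed replicate block over all months, 0 of 62 results changed. With the pool of trees within a month as a random replicate block (correlation 0.225), 3 of 42 changed: 1 turned sign (Q15E22 change from September to November, 0.0064), and a call was gained by the Q15E22 change of the Whorl 0 difference from May to July (-0.24) and Q11J18 Whorl 3 against Whorl 2 in March (-0.41). Quantile normalization moved the former to -0.35 and the latter to -0.75, both then called, and ended the calls of Q11J18 for the change from July to September (-0.43) and for Whorl 1 in May (0.32). It also moved Q11J18 steps in Whorls 1 to 3 to -0.31 (March to May), -0.27 (May to July), 0.72 (July to September) and 1.81 (January to November), Q15E22 steps to -0.13 (May to July) and 0.75 (July to September), Q11J18 steps in Whorl 0 to -1.12 (May to July) and 0.29 (July to September), the month share of Q11J18 to 96.0% and the whorl share of Q15E22 to 0.441% in Whorls 1 to 3. Scaling the arrays gave Q15E22 a called Whorl 0 difference in July (0.28), ended that of Q11J18 Whorl 1 in May (0.33), and moved Whorl 0 steps of Q11J18 to -1.06 (May to July) and 0.40 (July to September) and of Q15E22 to -0.39 and 0.75. With Whorl 0 included, scaling moved the whorl share of Q11J18 to 9.30% and the month and whorl shares of Q15E22 to 90.6% and 7.65%. Leaving out 1 replicate gave -0.66 to -0.52 for the Q11J18 change from July to September and 0.31 to 0.67 for its Whorl 1 in May. From September to November it gave 0.0058 to 0.22 for Q15E22 in Whorls 1 to 3, 1.33 to 1.64 for Q11J18 in Whorl 0 and -0.0095 to 0.22 for Q15E22 in Whorl 0, and from May to November 0.58 to 0.95 for Q11J18 in Whorl 0. Sign changes of uncalled values came with scaled arrays for Q15E22 changes of the Whorl 0 difference from July to September (-0.13) and September to November (0.041), Q11J18 Whorl 1 in July (0.0034), Q11J18 Whorl 3 against Whorl 2 in January (-0.021) and May (-0.033), the same for Q15E22 in May (-0.0014), and Q11J18 Whorl 3 against Whorl 1 over the months (-0.024). With quantile normalization they were the Q15E22 change from September to November (0.0058) and Whorl 3 against Whorl 2 for Q11J18 in January (-0.11) and July (-0.018) and Q15E22 in May (-0.010), and with all 66 arrays Q15E22 in November (-0.045). Leaving out 1 replicate, values on both sides of 0 were -0.17 to 0.042 (Q11J18 Whorl 0, November), -0.015 to 0.025 (Q15E22 change from September to November) and, for Whorl 1, -0.13 to 0.088 (Q11J18, March), -0.089 to 0.088 (Q11J18, September), -0.16 to 0.043 (Q15E22, May), -0.070 to 0.041 (Q15E22, September) and -0.074 to 0.060 (Q15E22, November). For Whorl 3 against Whorl 2 they were -0.011 to 0.10 (Q11J18, May), -0.30 to 0.0021 (Q11J18, November), -0.052 to 0.098 (Q15E22, September) and -0.066 to 0.19 (Q15E22, November), and for Whorl 3 against Whorl 1 -0.11 to 0.078 (Q11J18). With 1 replicate left out, the excess of Q11J18 over Q15E22 in Whorl 0 was 1.26 to 1.39 in May and 0.718 to 0.769 in July. Over all 7 alternatives it was 1.10 to 1.39 in May and 0.603 to 0.880 in July. With 1 replicate fewer the May and July values lost the call (exact permutation test, adjusted p up to 0.0714). Fewer assignments raise the least p that this test can give, so these losses do not show a smaller difference. The arrays' signal over background was not used here, so what it limits cannot be given.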
